A study of Mus musculus with 12 samples.

Results

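H19, Igf2 and 8 other fetal or imprinted genes were followed across RNA-seq libraries of 12 mouse livers. The 10 genes were taken by symbol from the deposited count table, which holds 27304 genes. They are H19, Igf2, Meg3, Dlk1, Peg3, Plagl1, Cdkn1c, Afp, Gpc3 and Igf2bp3. H19 was included because earlier work on these counts had named it for its rise without Ahr. The values of Ahr-null against control for H19 and the other 9 genes are therefore given as descriptions. Calls in them appear only in the section on processing, to show how they move, and support nothing. Tests are given for the sex difference and for the difference of the genotype effect between the sexes.

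All mice lacked Apoe, the apolipoprotein E gene, and had been on a diet labelled HFD for 12 weeks. The 6 control mice were Apoe-/-, and the 6 mice called Ahr-null here were Apoe-/-AhR-/-, so that they also lacked the aryl hydrocarbon receptor, a ligand-activated transcription factor. Each genotype had 3 males and 3 females, and each library came from 1 liver, flushed with buffer before removal. The sources used here give neither ages nor whether Ahr was lost in selected cell types alone.

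Genomic imprinting marks 1 parental copy of a gene for silence. At the H19/Igf2 locus on chromosome 7 the maternal copy makes H19, a long non-coding RNA, and the paternal copy makes Igf2, an insulin-like growth factor for the fetus. The Dlk1/Meg3 locus on chromosome 12 has the same layout, with Meg3 as the maternal non-coding RNA. Fetal liver makes H19, Igf2, Dlk1, Afp and Gpc3 abundantly, and adult hepatocytes keep them low. Several of them reappear in regenerating or malignant liver, hence the term oncofetal.

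Part of what these loci make is microRNA, and the sequences below are shown because H19, on which the results turn, is also a microRNA precursor. H19 lies on the minus strand at chr7:142575529-142578143 (GRCm38), and the Mir675 hairpin lies in an exon of it, at chr7:142577064-142577147. Mir483 lies within Igf2. The sequences are from RefSeq (GRCm38.p6), written 5′ to 3′. Capitals mark the mature arms in the hairpin, and the seed (bases 2 to 8) in each mature form.
Mir675 hairpin: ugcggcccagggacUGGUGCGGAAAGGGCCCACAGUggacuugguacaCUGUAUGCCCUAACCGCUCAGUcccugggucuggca
mmu-miR-675-5p: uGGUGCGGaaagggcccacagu
mmu-miR-675-3p: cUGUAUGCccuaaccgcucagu
mmu-miR-483-5p: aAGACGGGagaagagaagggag
mmu-miR-483-3p: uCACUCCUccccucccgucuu
The 4 mature forms have 4 different seeds. Both Mir675 and Mir483 had 0 counts in all 12 libraries of the deposited table. A library of longer RNA does not measure mature microRNA, so the counts say nothing of miR-675 or miR-483 levels.

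Depth and library quality bear on all low counts here. Each library held between 9794253 and 18924880 counts, and levels are given in CPM (counts scaled to a common total) after TMM scaling, a correction for differing library composition. On that scale a single count was worth 0.109 CPM or less. Mitochondrial genes held 30.4% to 69.8% of the counts of a library. These extremes were Ahr-null male replicate 3 and control female replicate 2, with TMM factors of 1.53 and 0.579. The factors ran from 0.579 to 1.107 in controls and from 0.945 to 1.53 in Ahr-null libraries. The part of composition in the H19 levels was not tested beyond the refits given under processing. Cyp1a2, a target of Ahr, stood at 46.98 to 216.9 CPM in the 6 Ahr-null libraries and at 451.6 to 1168 CPM in the controls. Ahr itself was at 12.4 to 24.99 CPM in all 12, a sum over all exons that says little of a partial deletion. The library labelled Ahr-null female replicate 1 had 154.4 CPM of Xist, the RNA of the inactive X chromosome, where the other 5 females had 678.3 to 1290 CPM and the males 2.33 to 13.2 CPM. Of 4 Y-linked genes, Kdm5d was at 2.02 CPM in it, at no more than 0.21 CPM in any other female and at 5.20 CPM or more in each male. Eif2s3y was at 2.11 CPM there and at 29.5 CPM or more in males, and Uty at 0.55 CPM against 5.27 CPM or more. Ddx3y, at 1.83 CPM, lay below the 2.51 CPM of another female and far below the 37.8 CPM or more of males.

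This library and control male replicate 1 also carried transcripts of neurons and glia. Of 30 neural markers, 25 were higher in both than in each of the other 10 libraries. The markers summed to 942.0 CPM of the unscaled total in the Ahr-null female and to 453.1 CPM in the control male, while sums elsewhere ran from 93.9 to 186.4 CPM. After TMM scaling these sums were 846.5, 568.4 and 77.8 to 199.7 CPM. On unscaled totals the 14 skeletal muscle markers summed to 41.9 and 43.8 CPM in these 2 libraries, and to 3.39 to 12.0 CPM in the others. Of 14 adrenal markers, 6 were at 0 in all libraries, among them Cyp11b1, Cyp11b2 and Mc2r. Another 2, Chga and Chgb, were higher in both these libraries than in each of the other 10. Chgb had 18.0 CPM of the unscaled total in the Ahr-null female and 6.17 CPM in the control male. The adrenal list summed to 74.5 and 26.7 CPM in them, and to 8.96 to 58.6 CPM in the others. The liver label was checked with Alb, the serum albumin gene, and 9 other hepatocyte markers, which summed to 12453 to 80933 CPM of the unscaled totals. Results that rest on these 2 libraries are given with and without them.

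H19 was barely present in control males and reached its highest levels in Ahr-null females. In control male replicates 1, 2 and 3 it had 5, 6 and 8 counts, or 0.42, 0.46 and 0.51 CPM. In control females it had 14, 60 and 10 counts, or 0.97, 6.54 and 0.83 CPM. In Ahr-null males the counts were 67, 7 and 219, or 2.64, 0.54 and 8.64 CPM. In Ahr-null females they were 697, 841 and 206, or 63.9, 50.5 and 11.4 CPM. The plot of H19 by library shows that replicate 2 stood apart in both groups of middle level: high among control females, and next to the controls among Ahr-null males.

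**Figure D1:**
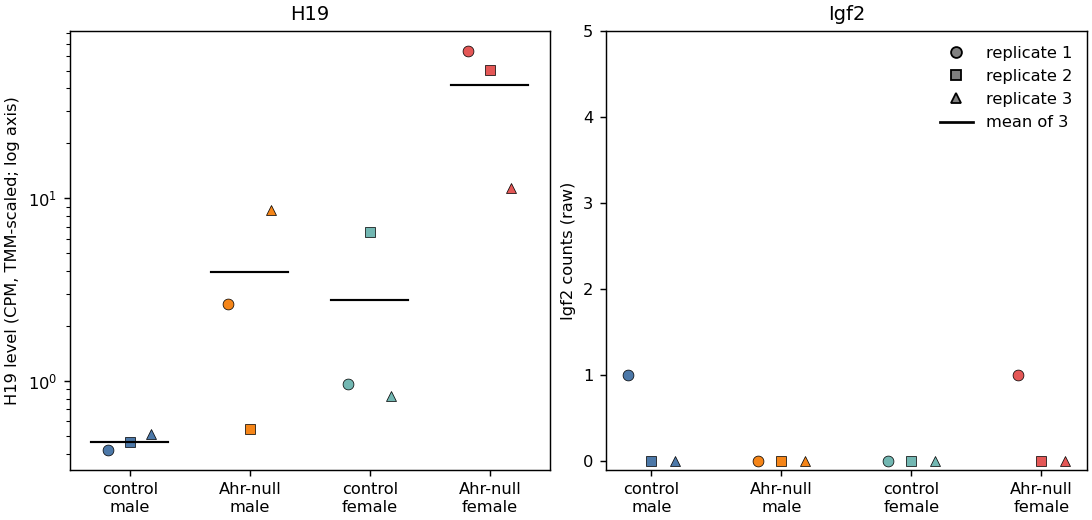
Left, H19 level in each library (CPM after TMM scaling, logarithmic axis) by genotype and sex, with marker shapes for replicates and a line at the mean of 3. Right, raw counts of Igf2 in the same libraries. H19 ran from 0.42 to 63.9 CPM, while Igf2 had 1 count in each of 2 libraries and 0 in the other 10.

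The group means of H19 were 0.465 ± 0.044 CPM (SD, n = 3) in control males, 3.94 ± 4.20 CPM in Ahr-null males, 2.78 ± 3.26 CPM in control females and 41.9 ± 27.3 CPM in Ahr-null females. The ratio of Ahr-null to control means was 8.48 in males and 15.1 in females. Without Ahr-null female replicate 1 the female ratio was 11.1, with a mean of 30.9 CPM. In each sex every Ahr-null library lay above every control library, as did 6.55% of the 13641 tested genes in males and 9.22% in females. In males it rests on a narrow gap between Ahr-null replicate 2 and control replicate 3. Without TMM scaling these 2 libraries had 0.51 and 0.56 CPM, and the male groups overlapped. Among all genes of a library, H19 ranked between 13008 and 14170 by level in control males, and 1257, 1453 and 5761 in Ahr-null females.

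In the fit over all genes, the log2 fold change of H19 (Ahr-null minus control) was 3.53 ± 0.71 (SE) averaged over sexes, 3.09 ± 1.07 in males and 3.97 ± 0.96 in females. With single libraries left out the averaged value ran from 2.90 to 4.30, and without the 2 libraries with neural transcripts it was 3.32. No test of these values is given here, since H19 was chosen for its rise in them. Of all tested genes, 1.06% were past an edgeR adjusted p of 0.05 in the averaged contrast, 0.0367% in males and 0.161% in females. The genes that were past it and higher without Ahr in the averaged contrast made up 0.528% of all tested genes. Of the 10 genes, 6 passed the filter on low counts.

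H19 was also higher in females than in males within each genotype, a contrast that did not choose it. The ratio of female to male means was 5.98 in controls and 10.6 in Ahr-null mice. Every female library lay above every male library of its genotype, as for 1.14% of tested genes. Without TMM scaling the Ahr-null groups overlapped, since female replicate 3 had 10.9 CPM and male replicate 3 had 13.2 CPM. The averaged log2 sex difference was 2.93 ± 0.71 (95% interval 1.40 to 4.46). It missed the threshold with edgeR (adjusted p = 0.0855), while DESeq2 put it past (adjusted p = 0.000338). It was 2.68 without Ahr-null female replicate 1 (edgeR adjusted p = 0.141). The genotype effect was 0.88 ± 1.46 larger in females than in males on the log2 scale (95% interval -2.28 to 4.04, edgeR adjusted p = 0.999), a difference within the spread of these libraries.

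Igf2, which shares H19's enhancers, was not seen beside it. Its start lies 88.7 kb from that of H19 (chr7:142650766-142666816, GRCm38). It had 1 count in control male replicate 1, 1 in Ahr-null female replicate 1 and 0 in the other 10 libraries, those with the neural transcripts being the 2 with a count. A library with 0 counts allows a level of up to 3 counts, which was at most 0.327 CPM in these 10 libraries. Igf2os, transcribed across Igf2 from the other strand, had 0 counts. Igf2 lies inside a longer gene model on its own strand, Gm49394, and the sources used here do not say how reads shared by both models were counted.

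Meg3 and Dlk1, the other imprinted pair of a non-coding RNA and a fetal growth gene, were highest in the 2 libraries that carried neural transcripts. Meg3 (chr12:109541001-109571726) had 103.4, 27.7 and 21.1 CPM in control males and 25.2, 8.83 and 12.0 CPM in control females. It had 30.2, 37.0 and 9.78 CPM in Ahr-null males and 100.2, 11.2 and 7.94 CPM in Ahr-null females. The first control male and the first Ahr-null female were thus far above the other 10 libraries, whose highest value was 37.0 CPM. Dlk1 (chr12:109452823-109463336), a membrane ligand of fetal liver progenitors, had 2 counts in control male replicate 1, 4 in Ahr-null female replicate 1 and 1 in Ahr-null male replicate 3. It had 0 in the other libraries. The 2 genes start 88.2 kb apart, on the chromosome of Ahr but 73.9 Mb from it.

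The genotype difference of Meg3 had opposite signs in the sexes, and it turned on the same 2 libraries. On the log2 scale it was -0.99 ± 0.89 in males and 1.36 ± 0.91 in females. The difference between the sexes, 2.35 ± 1.27 (95% interval -0.40 to 5.09, edgeR adjusted p = 0.999), did not pass. Without the 2 libraries it was -0.74, and without Ahr-null female replicate 1 alone it was 0.32. The part of the neural transcripts in the levels of Meg3, Dlk1 and Igf2bp3 was not tested beyond leaving out these libraries.

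**Figure D2:**
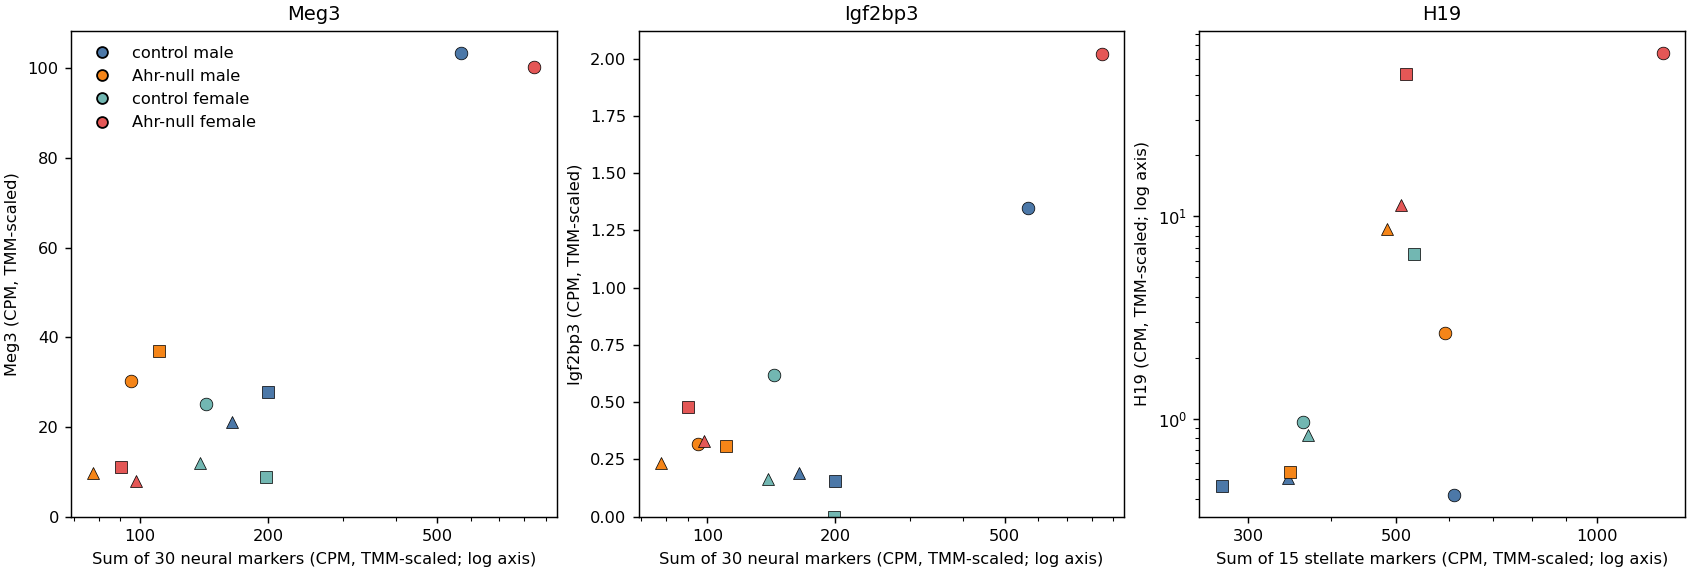
Levels of Meg3 and Igf2bp3 against the sum of 30 neural markers, and of H19 against the sum of 15 stellate cell and fibroblast markers, 1 point per library (CPM after TMM scaling, sums and H19 on logarithmic axes, colours for groups, shapes for replicates as in the plot of H19). Meg3 and Igf2bp3 are highest in the 2 libraries with the highest neural sums, 568.4 and 846.5 CPM, while H19 is lowest in one of them and highest in the other.

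Igf2bp3, an RNA-binding protein of fetal tissue and tumours that binds Igf2 mRNA, was highest in the same 2 libraries. It had 1.35 CPM (16 counts) in control male replicate 1 and 2.02 CPM (22 counts) in Ahr-null female replicate 1. The other 10 libraries held 0 to 9 counts, at most 0.62 CPM. Its gene (chr6:49085223-49214957) overlaps Malsu1 on the other strand, which had 2117 counts over the 12 libraries. Without a stated strand setting for the counting, reads of the 2 genes cannot be told apart where they overlap.

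Gpc3 and Afp are the 2 classical liver tumour markers of the set. Gpc3, a heparan sulphate proteoglycan of the cell surface (chrX:52272426-52613950), had 23 counts in all. There were 3, 4 and 3 in control males, 0, 1 and 3 in Ahr-null males, 1, 1 and 0 in control females and 6, 0 and 1 in Ahr-null females. In males every Ahr-null library lay below every control library, with 0, 0.08 and 0.12 CPM against 0.25, 0.31 and 0.19 CPM. Among tested genes 7.34% did so, and these few counts did not pass the filter for the test. The highest Gpc3 level, 0.55 CPM, was in Ahr-null female replicate 1.

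Afp, the fetal serum carrier that albumin replaces after birth (chr5:90490737-90508907), was low in every group. Its levels were 1.77, 2.63 and 1.66 CPM in control males and 2.29, 1.39 and 2.13 CPM in Ahr-null males. They were 2.90, 3.27 and 2.08 CPM in control females and 0.46, 1.92 and 3.48 CPM in Ahr-null females. The groups overlapped, and the lowest and the highest library were both Ahr-null females. The lowest was replicate 1, with 5 counts, which carried neural transcripts. The averaged genotype difference was -0.25 ± 0.37 on the log2 scale, and the sex difference was 0.24 ± 0.37 (95% interval -0.57 to 1.04, edgeR adjusted p = 0.928).

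**Figure D3:**
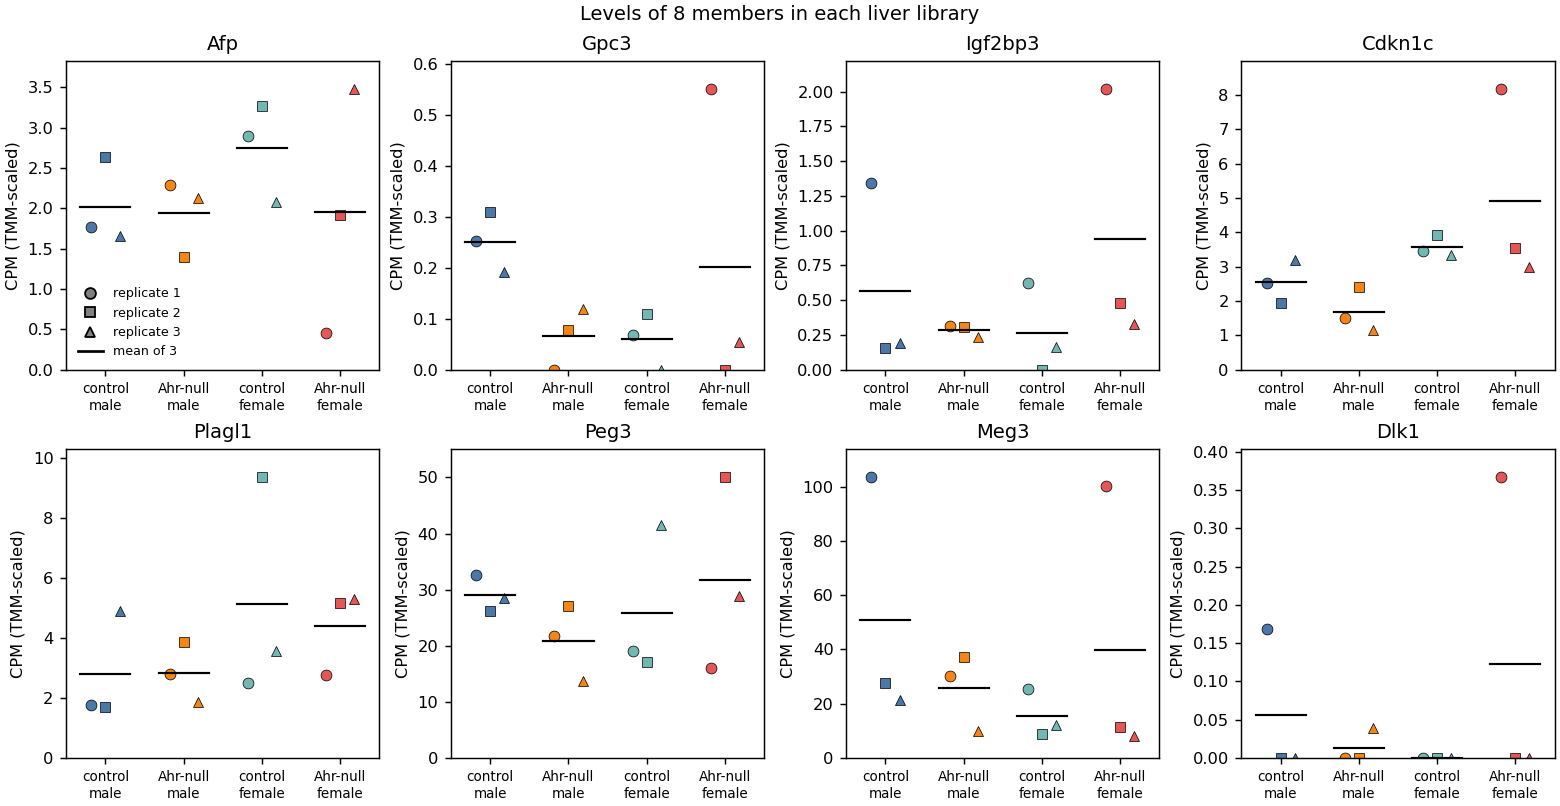
Levels (CPM after TMM scaling, linear axes from 0) of Afp, Gpc3, Igf2bp3, Cdkn1c, Plagl1, Peg3, Meg3 and Dlk1 in each library, with shapes for replicates and a line at the mean of 3. Afp, Plagl1 and Peg3 overlap between all groups, and replicate 1 of control males and of Ahr-null females carries the high points of Meg3 and Igf2bp3.

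Cdkn1c, Plagl1 and Peg3 are imprinted genes that restrain growth or regulate other genes of the imprinted set. Cdkn1c (chr7:143458339-143461050), the cyclin-dependent kinase inhibitor p57, is expressed from the maternal copy. It had 2.52, 1.93 and 3.18 CPM in control males and 1.50, 2.40 and 1.14 CPM in Ahr-null males. It had 3.45, 3.92 and 3.33 CPM in control females and 8.17, 3.54 and 2.98 CPM in Ahr-null females. After TMM scaling every female library lay above every male library of its genotype, as for 1.14% of tested genes. Without scaling the control groups overlapped. The averaged log2 sex difference was 1.01 ± 0.30 (95% interval 0.37 to 1.66, edgeR adjusted p = 0.192), and 0.72 without Ahr-null female replicate 1, which had the highest level. It did not pass. The genotype values were -0.63 ± 0.43 in males and 0.45 ± 0.41 in females, and the difference between them, 1.07 ± 0.59, did not pass (edgeR adjusted p = 0.999).

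Plagl1 (chr10:13060504-13131694), a zinc finger factor that activates imprinted genes including H19, ranged from 1.70 to 9.37 CPM. Its averaged genotype difference was -0.10 ± 0.38 and its sex difference 0.75 ± 0.39 (95% interval -0.08 to 1.59, edgeR adjusted p = 0.594). Peg3 (chr7:6703892-6730431), a paternally expressed zinc finger factor, ranged from 13.6 to 50.04 CPM. Its averaged genotype difference was -0.10 ± 0.30 and its sex difference 0.22 ± 0.30 (95% interval -0.44 to 0.88, edgeR adjusted p = 0.913).

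**Figure D4:**
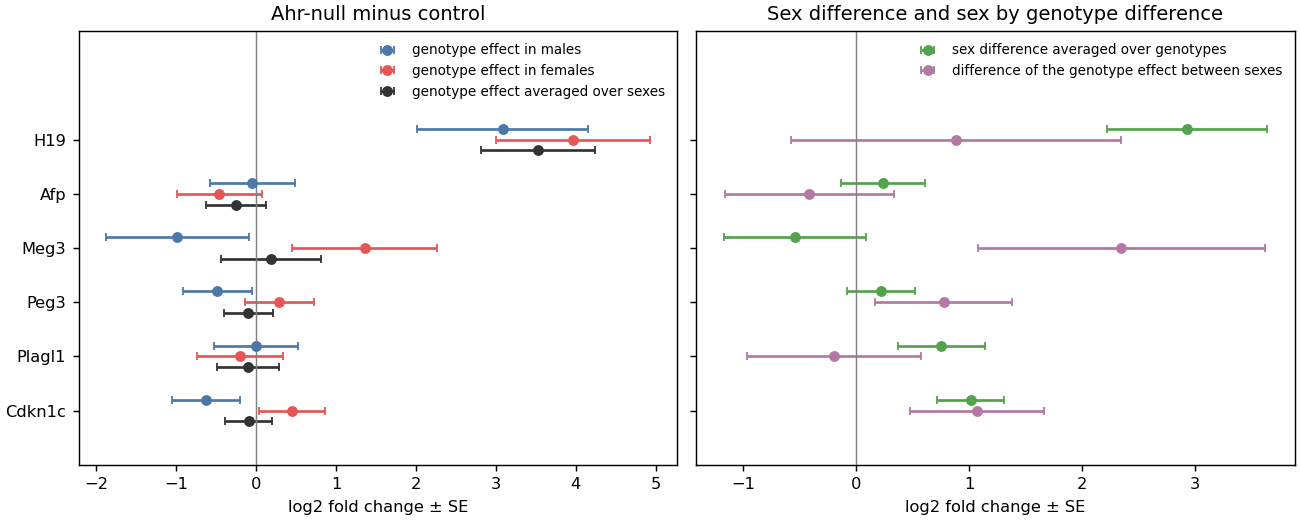
Log2 fold changes with their standard errors for the 6 genes that passed the filter on low counts. Left, Ahr-null minus control in males, in females and averaged. Right, the averaged sex difference (female minus male) and the difference of the genotype effect between sexes. H19 stands at 3.53 in the averaged genotype contrast while the other 5 genes lie between -0.25 and 0.19.

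Over the 6 tested genes, the sex contrast had 0 calls with edgeR, with limma-voom and with limma on the deposited values, and 1 call, H19, with DESeq2. In all, 1.07% of tested genes were past the edgeR threshold in this contrast. H19 and Cdkn1c were the 2 genes with an unadjusted p under 0.05. The difference of the genotype effect between sexes had 0 calls among the 6 with each of these tools and 0 unadjusted p under 0.05, beside 0.00733% of all tested genes called with edgeR.

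Per kilobase of exon, a scale that allows genes to be set side by side, the places of H19 and Meg3 among the 10 genes moved most between groups. In control males the mean levels were 2.81 ± 2.53 CPM per kb for Meg3, 2.18 ± 0.25 for Peg3, 1.25 ± 0.31 for Cdkn1c, 0.60 ± 0.16 for Afp and 0.36 ± 0.23 for Plagl1. H19 held place 6, at 0.19 ± 0.02 CPM per kb. Meg3, with place 1 here, held place 4 in control females, 3 in Ahr-null males and 4 in Ahr-null females, at 0.85 ± 0.48, 1.42 ± 0.78 and 2.20 ± 2.89 CPM per kb. Peg3 and Cdkn1c held places between 1 and 4 in every group. In control females H19 held place 3 at 1.13 ± 1.32, and in Ahr-null males H19 held place 1 at 1.60 ± 1.71 CPM per kb, within the spread of Peg3 at 1.56 ± 0.51. In Ahr-null females H19 held place 1 at 17.05 ± 11.1 CPM per kb, and Cdkn1c held place 2 at 2.40 ± 1.40. Gpc3, Igf2bp3, Dlk1 and Igf2 held the last 4 places in every group, at no more than 0.12 CPM per kb, and their order there lay within the spread of the libraries. Control females had no count of Dlk1 or Igf2.

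A list of genes around H19 was compared, up to 482.3 kb on one side and 1021.9 kb on the other. Whether they share regulatory elements with H19 was not tested. This list and the lists below were chosen with earlier results of these data known. Their genotype p-values and calls are therefore descriptions and support nothing on their own. Of 20 neighbours named from the region and present in the table, 13 were tested, and 2 rose without Ahr while 11 did not pass. Their median averaged log2 fold change was 0.23, beside 0.04 over all tested genes, of which 0.528% were called higher. Dusp8, a phosphatase of stress kinases 482.3 kb from the H19 start, rose by 1.96 ± 0.34 (edgeR adjusted p = 0.0188), a call that held in 4 of 12 fits with single libraries left out. Phlda2, an imprinted growth restrainer 925.0 kb away, rose by 2.63 ± 0.51 (edgeR adjusted p = 0.0303). Its levels were only 0 to 0.51 CPM in controls and 0.72 to 2.28 CPM in Ahr-null livers. It thus passed the filter on low counts only through the Ahr-null libraries, where it was higher, so its call supports nothing. With single libraries left out the call held in 1 of 12 fits. Mrpl23, the nearest tested gene at 45.5 kb, had 0.42 ± 0.28 and did not pass. On its side, Lsp1 had 0.23 ± 0.20, Tnni2, a muscle troponin, had -0.75 ± 0.44, and Ctsd had 0.32 ± 0.36. On the side of Igf2, the nearest listed genes Ins2, Th and Ascl2 had 0, 0 and 4 counts and were not tested. The first tested gene there was Tspan32, at 426.9 kb, with -0.14 ± 0.40.

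**Figure D5:**
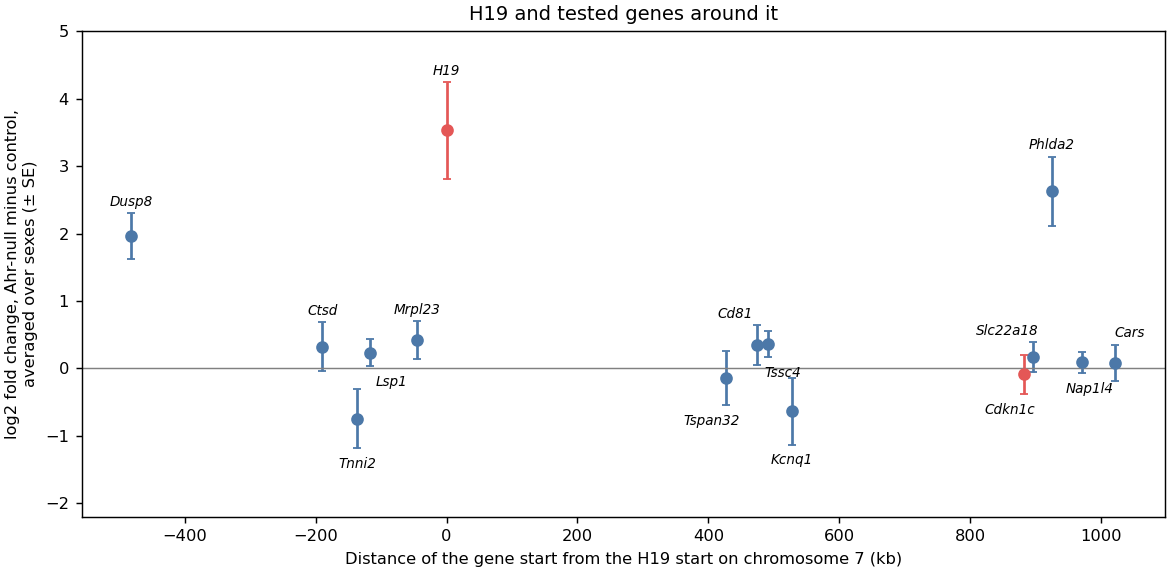
Averaged log2 fold change (Ahr-null minus control, with standard error) of H19, Cdkn1c (both red) and 13 tested neighbours (blue) against the distance of their start from the H19 start in kb. H19, Phlda2 and Dusp8 stand above the other genes, and Mrpl23, the nearest tested gene, lies at 0.42.

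Of 33 further imprinted genes, 32 were in the table and 22 were tested. Phlda2, which passed the filter only through the Ahr-null libraries, was the 1 that rose, and none fell. Of the 22, 15 had a positive averaged value, beside 54.2% of all tested genes. Their median was 0.23 on the log2 scale. Sgce, a sarcoglycan, stood at 0.76 ± 0.32 (edgeR adjusted p = 0.279) and Zrsr1, a splicing factor copy, at -0.64 ± 0.25 (edgeR adjusted p = 0.241). Igf2r, the receptor that clears Igf2, stood at 0.22 ± 0.20 (edgeR adjusted p = 0.644).

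Of 20 other oncofetal and hepatoblast genes, 10 were tested, and Ly6d was the 1 that rose, by 4.03 ± 0.71 (edgeR adjusted p = 0.0196). Ly6d codes for a small membrane-anchored protein of the Ly6 family. It had 0.76 to 2.21 CPM in the 6 controls, 22.1, 0.85 and 20.2 CPM in Ahr-null males and 72.5, 20.3 and 6.95 CPM in Ahr-null females. Ahr-null male replicate 2 was thus at the control level for Ly6d as it nearly was for H19. With single libraries left out the call of Ly6d held in 4 of 12 fits. The median of the list was 0.66 and 8 of 10 values were positive, beside 0.04 and 54.2% over all tested genes. Of all tested genes 0.528% were called higher. Epcam, a surface protein of hepatoblasts and bile duct cells, stood at 1.50 ± 0.51 (edgeR adjusted p = 0.187), and Tspan8, a tetraspanin, at 1.95 ± 0.59 (edgeR adjusted p = 0.150). Lin28b and Igf2bp1, 2 RNA-binding proteins of fetal cells, were near 0 and were not tested.

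Zhx2 and Zbtb20, repressors that silence Afp after birth, were measured in a list that also holds Zhx1, Zhx3, Zfhx3 and liver factors that activate Afp. All 14 genes were tested, and 0 passed with edgeR, limma-voom or limma on the deposited values. DESeq2 passed 1, and 3 had an unadjusted edgeR p under 0.05. Their median, taken over repressors and activators together, was -0.25. The 3 were Foxa3, Foxa1 and Onecut1, all liver transcription factors. Foxa3 had 21.4 to 28.7 CPM in controls and 26.4 to 45.4 CPM in Ahr-null livers, with a log2 difference of 0.59 ± 0.17 (edgeR adjusted p = 0.132). Foxa1 stood at -0.75 ± 0.28 (edgeR adjusted p = 0.221). Zhx2, which also represses H19 and Gpc3 in mouse liver, stood at -0.16 ± 0.28 (edgeR adjusted p = 0.849), and Zbtb20 at -0.28 ± 0.24 (edgeR adjusted p = 0.634). Onecut1 had 22.4 to 40.4 CPM in control females and 3.08 to 15.96 CPM in the other 3 groups, with an averaged genotype difference of -0.97 ± 0.38 (edgeR adjusted p = 0.242).

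Of 18 genes of the insulin-like growth factor axis, 16 were tested. With edgeR 0 passed, 3 had an unadjusted p under 0.05, DESeq2 passed 2, and limma-voom and limma on the deposited values passed 0. The 3 were Igfbp2, Igfbp1 and Stc2. Igfbp2, a binding protein of these growth factors, had 53.7 to 122.8 CPM in controls and 64.3 to 672.7 CPM in Ahr-null livers, with a log2 difference of 1.70 ± 0.47 (edgeR adjusted p = 0.115). Igfbp1 stood at 1.39 ± 0.41 (edgeR adjusted p = 0.135) and Stc2, a secreted glycoprotein, at 1.24 ± 0.47 (edgeR adjusted p = 0.227). Igf1 itself was even, at 0.07 ± 0.25 (edgeR adjusted p = 0.932).

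Of 16 genes that set or guard imprints, 14 were tested, and 0 passed with edgeR, limma-voom or limma on the deposited values. DESeq2 passed 1 and 2 had an unadjusted p under 0.05. Their median was 0.00. The 2 were Arid4a and Tet3. Arid4a, a chromatin protein, had 105.6 to 384.5 CPM in controls and 51.7 to 157.4 CPM in Ahr-null livers, with a log2 difference of -1.04 ± 0.32 (edgeR adjusted p = 0.160). Tet3 and Tet1, which oxidise methylated cytosine, stood at -0.44 ± 0.20 (edgeR adjusted p = 0.302) and -1.23 ± 0.63 (edgeR adjusted p = 0.378). Ctcf, the insulator protein that separates Igf2 from its enhancers on the maternal copy, stood at -0.29 ± 0.17 (edgeR adjusted p = 0.439). Zfp57, which keeps imprints methylated, stood at 0.03 ± 0.36 (edgeR adjusted p = 0.983). DNA methylation was not measured.

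Markers of stellate cells and of bile duct cells were measured beside H19. In bulk liver, fewer cells of a type and less RNA per cell cannot be told apart. After TMM scaling, the 15 stellate cell and fibroblast markers summed to 273.6 to 611.9 CPM in control males, 346.9 to 592.0 in Ahr-null males, 362.7 to 531.4 in control females and 508.7 to 1256 in Ahr-null females. The groups overlapped in both sexes. The highest sums of Ahr-null females and of control males, 1256 and 611.9 CPM, were in the 2 libraries with neural transcripts. Ahr-null female replicates 2 and 3 had 517.2 and 508.7 CPM, inside the range of control females. Control male replicates 2 and 3 had 273.6 and 344.8 CPM. On unscaled totals the sums were 255.4 to 487.8, 327.7 to 865.1, 307.7 to 316.6 and 487.2 to 1398 CPM, which do not overlap in females. Of these, 14 were tested, 13 had positive averaged values, and Rgs5, a pericyte gene, was the 1 that rose, by 1.12 ± 0.20 (edgeR adjusted p = 0.0200), a call that held in 5 of 12 fits with single libraries left out. The median was 0.66. Over all tested genes 54.2% were positive, the median was 0.04 and 0.528% were called higher. No marker of this list was at 0 in all libraries.

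The 10 cholangiocyte markers, of bile duct cells, summed to 51.2 to 142.2 CPM in controls, 90.3 to 128.8 CPM in Ahr-null males and 74.4 to 275.9 CPM in Ahr-null females after TMM scaling. The highest control, a female, lay above all 3 Ahr-null males. Among Ahr-null females the 275.9 CPM was in replicate 1, with the neural transcripts, and replicates 2 and 3 had 117.9 and 74.4 CPM. On unscaled totals the sums were 43.9 to 99.8, 85.3 to 197.1 and 71.2 to 307.0 CPM. All 10 had positive averaged values with a median of 0.76, beside 54.2% positive and a median of 0.04 over all tested genes. Tff3, a secreted mucosal peptide, was the 1 that rose, by 3.52 ± 0.45 (edgeR adjusted p = 0.00741), beside 0.528% of all tested genes. Epcam is in this list and in the oncofetal list. No count of positive values without Ahr-null female replicate 1 is given. None was at 0 in all libraries. The part of either cell type in the H19 levels was not tested.

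The genes whose levels most resembled H19 were chosen by Spearman rho over the 12 libraries among tested genes with an established name and a mean log2 CPM of at least 0. They were Colec11 (0.979), Nipal1 (0.958), Galnt10 (0.944), Aldh1b1 (0.944) and Tbx20 (0.937). The libraries share genotype, sex and depth differences with every gene, so these values describe a shared pattern of levels. Colec11, a circulating collectin, had 11.5 CPM in control male replicate 1 and 22.2 CPM in Ahr-null female replicate 1. Aldh1b1, a mitochondrial aldehyde dehydrogenase, had 7.74 CPM and 73.8 CPM there. With Pearson r, or without the 2 libraries with neural transcripts, Colec11 was the 1 gene of the 5 that stayed among the first 5. Of the other 9 genes, 5 passed the filter and could be compared, and none was near this list: rho with H19 was 0.42 for Plagl1 and for Cdkn1c, 0.11 for Afp, -0.28 for Peg3 and -0.43 for Meg3.

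The core motif bound by Ahr with its partner Arnt, GCGTG, was counted on both strands of the RefSeq promoters (GRCm38.p6), from 250 bases before the start to 50 after it. It was in 10639 of 32851 promoters (32.4%). Of 12 promoters listed for 8 of the 10 genes, 4 held it, those of Peg3, Plagl1, Dlk1 and Gpc3. H19 and Cdkn1c had no entry among the promoters used here, so theirs were not scanned. These matches describe letters in a window, not binding.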

How the data were processed

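RNA-seq was made from total RNA of 12 livers. The table of raw counts per gene deposited by the authors gives whole numbers. A second table, which its header ascribes to DESeq2, holds values the authors deposited after a variance-stabilising transform, near to log2. Tools listed in the submitters' processing notes are STAR 2.7.8 for alignment to GRCm38 and, in other steps, DESeq2 1.28.1, FastQC 0.11.8 and Trim Galore 0.6.5. No source used here names the counter, strand setting or annotation.

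Counts were tested with edgeR 4.0.16 (R 4.3.3): filterByExpr by group, which left 13641 genes, TMM scaling, a robust quasi-likelihood fit with 4 group means, and two-sided Benjamini-Hochberg adjusted p over all tested genes. The script was tested on simulated data. Library totals of 9794253 to 18924880 limit precision most for genes with few counts. No replicate pair agreed within sampling noise, and p-values reflect only how far these samples vary. Replicate numbers follow accession order.

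The 10 genes and the further gene lists, together 232 distinct genes of which 231 were found, were chosen with earlier results of these data known. Genotype p-values within the lists are therefore descriptions. The text names all 10 genes, genes of each list past the test (otherwise up to 3 with the smallest p), and the 5 genes most like H19. Some further list members were named for their known roles after their values were seen. Positions come from GENCODE M21 (GRCm38), with 27225 genes matched by Ensembl ID, and sequences from RefSeq. Alternatives were RLE factors, library size alone, other filters and thresholds, leaving out mitochondrial genes or libraries, edgeR without robust estimation, DESeq2 1.42.0, and limma 3.58.1 on voom and on deposited values. TMM-scaled marker sums beside unscaled ones were added after the data had been seen.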

Additional observations from a re-analysis of the deposited data

How the results depend on the processing

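H19 kept a positive averaged genotype value in all 22 refits, from 2.39 to 4.30 on the log2 scale, and was past the threshold in 9 of them, a count that supports nothing since this contrast chose H19. The count of the 10 genes past it, 1, was 0 with no low-count filter, limma-voom, the 2 neural libraries left out or a threshold of 0.01, and 0 to 1 with single libraries left out (1 without Ahr-null male replicate 2 or Ahr-null female replicate 3, and 0 without any of the other 10). DESeq2 gave 1 in the sex contrast, where a threshold of 0.10 also gave 1. In the female genotype contrast DESeq2 gave 1 as well. The gene in all these genotype counts was H19, so they describe how its call moved and support nothing either.

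Over all genes, the averaged count of 144 became 1053 with library size alone, 664 with DESeq2, 432 without the 2 neural libraries, 8 at 0.01, 332 at 0.10 and 6 to 663 with single libraries left out. For males (5) these were 12, 106, 27, 1, 10 and 0 to 57, and limma-voom and limma on deposited values gave 3 and 9. For females (22) they were 116, 491, 235, 3, 68 and 3 to 153, with 35 and 46. The interaction (1) gave 3, 20 and 4, with 4 for limma on deposited values, 0 at 0.01 and 0 to 2 with single libraries left out. The sex contrast (146) gave 358 with DESeq2, 262 without the 2 libraries, 57 at 0.01 and 50 to 359. The cause of these moves was not tested. Library size alone raised the median of all genes by 0.50 (genotype) and moved it by -0.27 (sex).

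Of the values that changed sign, none was past the threshold. Averaged genotype values kept their sign in 21 of 22 refits for Afp, 18 for Cdkn1c, 17 for Peg3, 16 for Meg3 and 15 for Plagl1. They ran from -0.83 to 0.71 for Meg3, -0.34 to 0.36 for Peg3 and -0.26 to 0.39 for Plagl1. The genotype value of Plagl1 in males kept its sign in 7 of 22 refits. The sex-by-genotype difference of Afp was 0.10 without the 2 neural libraries and -1.12 to 0.028 with single libraries left out (positive without Ahr-null female replicate 1). That of Meg3 was -0.74 without the 2 libraries. That of Plagl1 was 0.13 with library size alone, 0.063 with limma-voom, 0.32 without the 2 libraries and -0.90 to 0.54 with single libraries left out (positive without control male replicate 1 or 2, control female replicate 2, Ahr-null male replicate 2 or Ahr-null female replicate 1). The sex difference of Afp was -0.097 with library size alone and -0.13 to 0.44 with single libraries left out (negative without Ahr-null female replicate 3). That of Peg3 was -0.054 to 0.37 (negative without control female replicate 3 or Ahr-null female replicate 2). The genotype value of Tet3, a demethylase of the imprint list, was 0.064 with library size alone.

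Among named list genes, Tff3 passed in 22 of 22 refits, Glul in 16, Rgs5 in 15, Dusp8 in 13, Ly6d in 10 and Phlda2 in 8. With single libraries left out, Phlda2 held without Ahr-null female replicate 1, Ly6d without any Ahr-null female or Ahr-null male replicate 2, and Dusp8 without control male replicate 1, Ahr-null male replicate 2 or Ahr-null female replicates 1 or 3. Rgs5 held without control male replicate 1, Ahr-null male replicate 2 or any Ahr-null female (5 of 12), and Glul held there and without control male replicate 3 (6 of 12). Over all 22 refits the adjusted p of these 5 genes was at most 0.165. TMM scaling lowered the log2 genotype difference of the summed stellate markers from 0.72 to 0.26 in males and, in females, to 0.74, and that of the cholangiocyte markers from 1.08 to 0.63 and 1.36 to 0.82. The female values include Ahr-null female replicate 1, which had the highest sum of both lists. No paired analysis was possible because replicate numbers follow accession order and pair nothing. Igf2, Dlk1, Gpc3 and Igf2bp3 are limited by depth, with 2 to 86 counts over 12 libraries.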

Other observations

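Other lists checked beside the 10 genes gave few calls. They too were chosen with earlier results of these data known, so their genotype p-values are descriptions. Of 10 hepatocyte markers, Glul, which makes glutamine in pericentral cells, fell by 1.55 ± 0.24 on the log2 scale (edgeR adjusted p = 0.0143), and 9 did not pass. Glul had 570.5 to 884.4 CPM in the 6 controls and 170.7 to 358.9 CPM in the 6 Ahr-null livers, and its call held in 6 of 12 fits with single libraries left out. With edgeR, 0 of 10 endothelial, 15 neural, 5 skeletal muscle, 3 adrenal and 1 pancreas markers passed in the averaged genotype contrast. At an unadjusted p under 0.05 these counts were 1, 2, 1, 0 and 0, with DESeq2 they were 1, 0, 1, 0 and 0, and limma passed none in either form. Kdr, a growth factor receptor of endothelial cells, stood at 0.65 ± 0.19 (edgeR adjusted p = 0.132), Snhg11, the neural marker with the smallest p, at -0.97 ± 0.43 (0.301), and Atp2a1, the calcium pump of fast muscle, at 2.004 ± 0.62 (0.157). The pancreas genes Ins1, Gcg and Iapp had 0 counts in all libraries.

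In the sex contrast, 0 of 22 further imprinted genes and 0 of 10 further oncofetal genes passed with edgeR, while 4 and 2 had an unadjusted p under 0.05. DESeq2 passed 1 and 0 of them, and limma none in either form. All 10 tested oncofetal genes had a positive value (female minus male), with a median of 0.79, beside 53.4% positive and a median of 0.03 over all tested genes. Among Ahr-null females all of these but Tspan8 and Akr1b8 were highest in replicate 1, which carried neural transcripts. Scd2, for example, had 52.7 CPM there and 4.93 and 3.26 CPM in replicates 2 and 3. No refit of this list without that library is given.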
